A study of Mus musculus with 21 samples.

Results

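The cytochrome P450 genes of families 1 to 4 were examined in brain, liver and skin RNA of newborn mice, taken as every gene symbol in the count files made of Cyp, a family number from 1 to 4, a subfamily letter and a gene number. The rule gave 75 of the 24391 gene symbols, with 3 genes in family 1, 48 in family 2, 7 in family 3 and 17 in family 4, spread over 21 subfamilies. It left out 11 symbols of these families that carry a further letter or mark a pseudogene or antisense transcript. The mice were C57BL/6 newborns at P0, either Jak1 KI (+/-), which carry H595D with the silent changes I596I and Y597Y on 1 Jak1 allele, or wild type (WT). Each tissue had 2 KI and 5 WT libraries, 21 in all, each library made from a single mouse and tissue. The study's methods name 2 KI and 5 WT mice, so the tissues came from the same mice. The study reports that a mosaic male sired heterozygous KI offspring. It does not state that the sequenced newborns were his, so that they stand for a single edited line is an inference. The labels give neither sex nor litter.

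P450 enzymes are heme proteins that put oxygen into drugs, steroids, fatty acids and other fat-soluble molecules, with electrons from P450 reductase (Por). Family 1 is best known for the AHR-driven breakdown of aromatic compounds, families 2 and 3 for drugs, steroids and bile acids, and family 4 for the omega-oxidation of fatty acids. Most of them are made by hepatocytes, under the receptors PXR (Nr1i2), CAR (Nr1i3) and PPARA and the factor HNF4A, and many of the liver genes rise from birth to adulthood. Cytokines such as IL-6, which signals through JAK1, are known to lower many P450 transcripts in liver.

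The libraries held 26549326 to 38388133 counts on genes, which were 80.5% to 87.6% of the reads aligned to 1 place. Levels are given as CPM, the counts scaled to a common library size with TMM factors, and, where genes are set against each other, as RPKM, which is CPM per kilobase of annotated exon. Defining markers followed the labelled tissues, with Alb at 87984 to 116437 CPM in the liver libraries against 29.6 CPM or less in the brain and skin libraries. Per the study's methods, RNA integrity was lower in the skin samples than in the liver samples. Its part in comparisons with skin was not tested. The skin libraries differed widely among themselves in epidermal RNA. The summed level of 8 keratinocyte markers ran from 952 CPM in skin KI 2 and 1586 CPM in skin WT 5 to 17364 CPM in skin WT 4.

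The mark of the family is a loop near the end of the protein whose cysteine holds the heme iron. The coding stretch of this loop is shown for 4 genes that were lower in KI liver, 1 each from subfamilies 2e, 2f, 3a and 4a, in the NCBIM37 (mm9) build with the cysteine codon in capitals. The Cyp3a25 stretch lies within 1 exon at chr5:146793044-146793073 on the minus strand. The other stretches cross an exon junction, and their outer ends are chr7:147959661-147960476 on the plus strand for Cyp2e1, chr7:27917625-27918254 on the plus strand for Cyp2f2 and chr4:115159904-115162410 on the minus strand for Cyp4a14.
Cyp2e1: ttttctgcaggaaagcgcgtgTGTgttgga
Cyp2f2: ttttcggctggacgtcgactgTGTctggga
Cyp3a25: tttggaaatggacccaggaacTGCataggc
Cyp4a14: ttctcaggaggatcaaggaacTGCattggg

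In WT newborns, more P450 genes were expressed in liver than in skin or brain. A gene was counted as on when all 5 WT libraries of a tissue had at least 1 CPM. In WT liver 43 of the 75 P450 genes were on, a share not far above the 51.1% of all gene symbols. In WT skin 16 were on, beside 55.6% of all symbols, and in WT brain 12, beside 55.3%. By tissue, 33 genes were on in liver only, 3 in skin only (Cyp2g1, Cyp2w1 and Cyp4f39), 1 in brain only (Cyp2u1), 6 in all 3 tissues and 24 in none. The summed level of all 75 genes was 3445 to 4426 CPM in WT liver, 184 to 354 CPM in WT skin and 75.4 to 110 CPM in WT brain. Libraries are scaled to the other RNA of their tissue, and in bulk tissue fewer cells of a type and less RNA per cell cannot be told apart.

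When the 3 WT tissues were compared with edgeR's quasi-likelihood test, 62 of the 75 genes had enough counts. The filter asks for counts in no more libraries than 1 tissue has, so a gene expressed in liver only can pass. The fit held the tissue only and did not use that the tissues share mice. A gene counted as higher in a tissue when its level was at least 2-fold above both other tissues, each at a Benjamini-Hochberg adjusted p under 0.1. By this rule 45 of the 62 genes were higher in liver, where 14.5% of all genes tested were. Another 6 were higher in skin (background 11.2%) and 3 in brain (background 20.8%), while 8 met the rule for no tissue. Of the 45 liver genes, 37 averaged under 1 CPM in both brain and skin. Genes such as Cyp2b9 and Cyp3a44, at 0 CPM in both, passed the filter through liver alone, which all but set their call in advance. The count of 45 therefore describes where the genes are on and is no separate test. In the plot of WT levels the liver points lie far above the others for most genes, and the skin and brain genes stand at its right end.

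**Figure D1:**
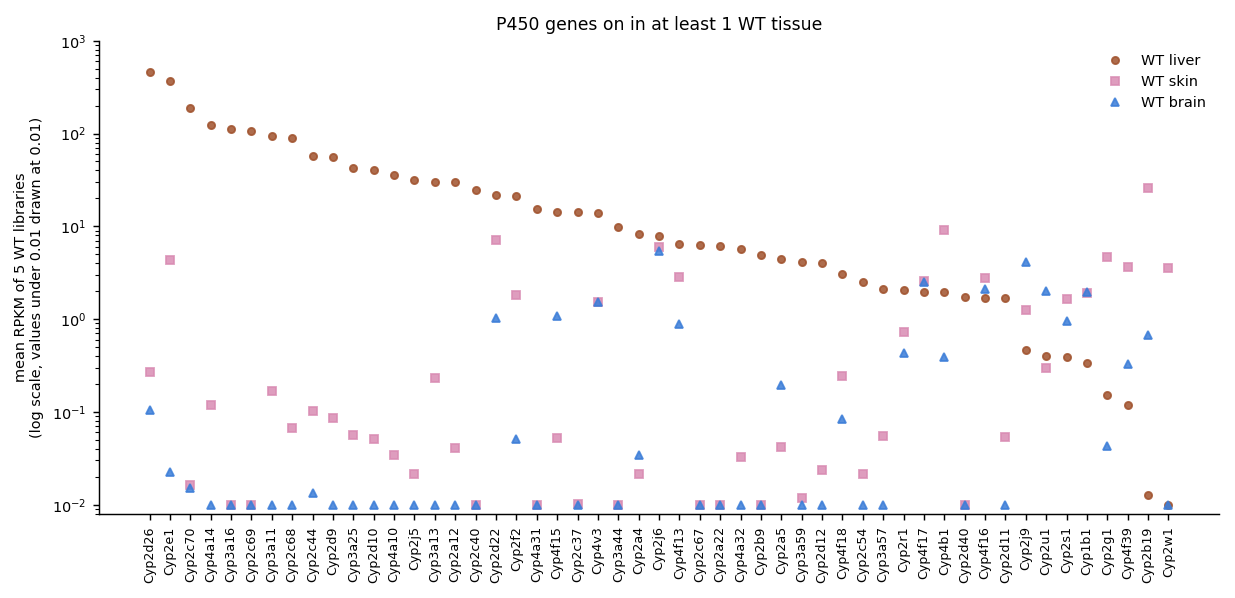
Mean level of the 51 P450 genes that were on in at least 1 WT tissue, in RPKM on a log axis, for WT liver, skin and brain (means of 5 libraries each, genes in order of the liver level). Cyp2d26 leads in liver at 459 RPKM, Cyp2b19 in skin at 25.7 RPKM and Cyp2j6 in brain at 5.37 RPKM.

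Per length, the 10 highest genes held 79.5% of the summed P450 RPKM of WT liver. Cyp2d26, of the large 2d drug and steroid subfamily, was highest at 459 ± 61.1 RPKM (SD, n = 5), with 387 to 547 RPKM over the 5 livers. Cyp2e1, which oxidizes ethanol, acetone and other small molecules, followed at 373 ± 75.2 RPKM (SD, n = 5), and its libraries overlapped those of Cyp2d26. Cyp2c70, which makes the muricholic acids of mouse bile, came next at 187 ± 23.4 RPKM (SD, n = 5), below every library of Cyp2e1.

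The next place was held by Cyp4a14, a fatty acid omega-hydroxylase and PPARA target, at 124 ± 19.4 RPKM (SD, n = 5). Below it stood Cyp3a16, a form known from fetal and newborn liver, at 111 ± 21.3 RPKM, Cyp2c69 at 106 ± 20.1, Cyp3a11 at 94.2 ± 43.4 and Cyp2c68 at 89.2 ± 18.0 (SD, n = 5 each). From Cyp4a14 to Cyp2c68 the range of each gene overlapped that of the next, and the order of neighbours changed between livers. Within each of the 5 livers, however, Cyp4a14, Cyp3a16 and Cyp2c69 stood above Cyp2c68. Cyp2c44, an arachidonic acid epoxygenase, at 56.7 ± 4.97 RPKM and Cyp2d9 at 56.2 ± 6.41 RPKM closed the list, and they too overlapped each other. Close paralogs limit these levels, because reads that fit more than 1 place were not counted. Of the 75-base windows of its transcript, Cyp2c69 shared 40.0% and Cyp2c68 28.5% with other places in the genome or transcripts, against 3.14% for Cyp2e1 and none for Cyp4a14.

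Several P450 genes that are prominent in adult liver or after drug exposure were low at birth. Cyp1a2, a major caffeine-oxidizing enzyme of adult liver, had 3.64, 1.63, 2.63, 0.345 and 1.504 CPM in livers WT 1 to WT 5. Cyp1a1, the classic AHR target, stayed between 0.150 and 0.205 CPM in WT liver, and Cyp2b10, the classic CAR target, had 0.116, 0.0255, 0.341, 2.61 and 0.241 CPM in the same order. Cyp2c29 averaged 0.304 CPM and Cyp4f14, a leukotriene and fatty acid hydroxylase, 0.457 CPM. By contrast, Cyp2r1, a vitamin D 25-hydroxylase, was on in every WT liver at 3.33 ± 0.501 CPM (SD, n = 5), and Cyp4v3, a fatty acid hydroxylase of many tissues, at 40.7 ± 5.31 CPM (SD, n = 5).

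In WT skin, Cyp2b19 led by a wide margin. It is an arachidonic acid epoxygenase of differentiating keratinocytes, and it stood at 25.7 RPKM against 0.67 RPKM in brain and 0.013 RPKM in liver. It exceeded brain by 5.35 on the log2 scale (standard error 0.419, adjusted p = 9.42e-09 from edgeR's quasi-likelihood test with Benjamini-Hochberg adjustment). Cyp4b1, which hydroxylates fatty acids and activates lung toxins, followed at 9.11 RPKM, and Cyp2d22 at 7.04, Cyp2j6 at 5.95 and Cyp2g1 at 4.72 RPKM completed the 5 highest. Cyp4f39, the mouse counterpart of the human enzyme that hydroxylates very long fatty acids for the lipid barrier of the epidermis, was at 3.63 RPKM. The 6 genes higher in skin than in both other tissues were Cyp2b19, Cyp4b1, Cyp2g1, Cyp4f39, Cyp2w1 and Cyp1a1, the last at only 1.07 CPM. Cyp2d22 and Cyp2j6 were among the genes higher in liver.

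Several P450 genes expressed in skin were not even among the 7 skin libraries, among them Cyp2s1, which met the rule for no single tissue. Cyp4f39 had 1.33 CPM in KI 2, 1.73 in WT 5, 7.11 in WT 2, 7.06 in WT 3, 13.5 in WT 1, 14.3 in KI 1 and 14.997 in WT 4, with the libraries named in order of their keratinocyte marker sum. Its highest library was 11.3 times its lowest, and the same ratio was 5.92 for Cyp2s1, 5.63 for Cyp2w1, 6.24 for Cyp2g1 and 3.34 for Cyp2b19. For Cyp4b1 the ratio was 1.73 and for Cyp2j6 1.30. The 2 libraries with the lowest keratinocyte sums, KI 2 and WT 5, also held the lowest levels of Cyp4f39, Cyp2s1, Cyp2w1 and Cyp2g1. Skin KI 2 held the lowest Cyp2b19, at 56.0 CPM, and WT 2 the highest, at 187 CPM, although WT 2 had the third lowest keratinocyte sum. The part of epidermal content or of RNA integrity in these levels was not tested.

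**Figure D2:**
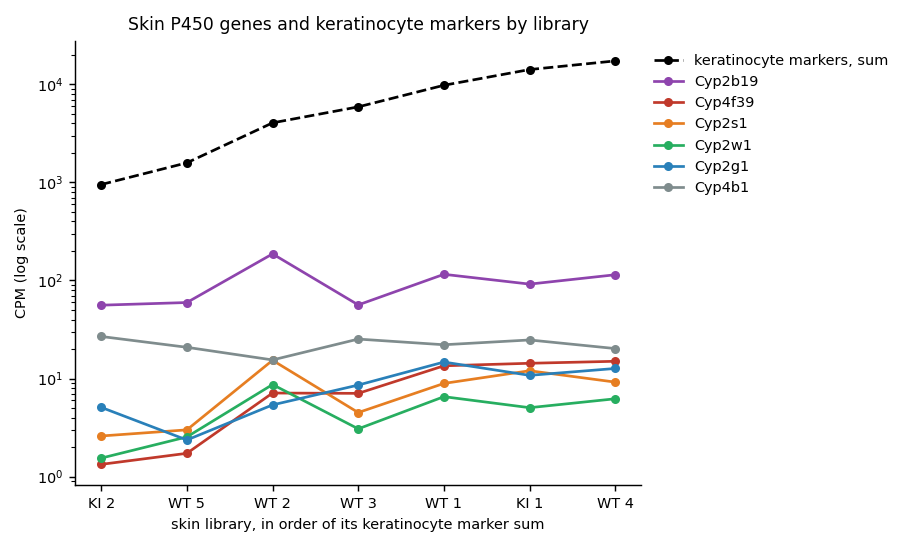
Levels of Cyp2b19, Cyp4f39, Cyp2s1, Cyp2w1, Cyp2g1 and Cyp4b1 and the summed level of the keratinocyte markers in each skin library, in CPM on a log axis, with libraries ordered by the marker sum. Cyp4f39 runs from 1.33 CPM in KI 2 to 14.997 CPM in WT 4, while Cyp4b1 stays between 15.5 and 26.9 CPM.

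In WT brain the highest levels per length were those of Cyp2j6 (5.37 RPKM), Cyp2j9 (4.09), Cyp4f17 (2.53), Cyp4x1 (2.17) and Cyp4f16 (2.10). The 3 genes higher in brain than in both other tissues were Cyp2j9, a brain-expressed arachidonic acid epoxygenase, Cyp2u1, a fatty acid hydroxylase of brain and thymus, and Cyp4x1, known from neurons. Cyp4x1 had no count in any of the 7 skin libraries and 0.114 CPM on average in WT liver. In WT brain it had 9.26, 11.1, 12.3 and 12.0 CPM in WT 1 to WT 4 but 0.838 CPM in WT 5, which kept it from being counted as on. Cyp2j9 was also lowest in brain WT 5, at 8.38 CPM against 14.6 to 15.5 CPM in the other WT brains.

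The main question was whether P450 genes of the liver differ between KI and WT newborns. They were lower in KI for a limited set of genes. Of the 75 genes, 60 passed the filter on low counts in liver. The 15 others averaged at most 0.207 CPM in WT liver and were not tested. The filter asks for counts in as few as 2 libraries, so a gene expressed in 1 genotype only can pass. In edgeR's quasi-likelihood test, 9 of the 60 genes (15%) were lower in KI at an adjusted p under 0.1, where 1.68% of all genes tested were lower. None was higher, where 3.89% of all genes were. At an unadjusted p under 0.05, 13 P450 genes were lower and 4 higher, beside 1258 and 1421 of all 14966 genes tested. The Wald test of DESeq2 called 11 P450 genes lower, where it called 4.34% of all genes lower, and 0 higher, where it called 848 genes higher. All 9 genes were on in WT liver, and in all 9 both KI livers lay below all 5 WT livers. This separation was seen in 15 of the 60 genes, where 11.3% of all genes tested had it, and the opposite separation in 4, where 13% of all genes had it.

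The call count rested on both KI livers. Without KI 1 it was 5 and without KI 2 it was 0, when the single KI liver left was assumed to vary like the others. Over all genes, 35 and 7 were then called lower, in place of 251. A fit of all 21 libraries, which shares 1 estimate of the spread over the 3 tissues, called 0 P450 genes lower and 86 genes in all. Leaving out single WT livers gave 7 to 11, while the number over all genes ran from 131 without WT 3 to 506 without WT 4, the setting that gave 11. The log2 fold changes of the 9 genes stayed below 0 in all 14 alternative settings. They ran from -1.62 to -1.28 for Cyp2e1, -1.54 to -1.12 for Cyp4a14 and -0.39 to -0.26 for Cyp2d22.

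Cyp2e1 fell the most in absolute level. It had 223 and 253 CPM in the KI livers against 574, 576, 876, 602 and 776 CPM in WT 1 to WT 5. The lowest WT liver thus held more than 2 times the level of either KI liver. Its level was 2.86-fold lower in KI, which is -1.52 on the log2 scale (standard error 0.196), with an adjusted p of 0.00713 from edgeR's quasi-likelihood test with Benjamini-Hochberg adjustment.

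Cyp4a14, the fatty acid omega-hydroxylase, had 149 and 110 CPM in the KI livers and 262, 306, 330, 401 and 316 CPM in the WT livers. Both KI values were far below the lowest WT value. It was 2.50-fold lower in KI (log2 fold change -1.32, standard error 0.182, adjusted p = 0.00930 from edgeR). Its neighbour on chromosome 4, Cyp4a10, also a PPARA target, had 61.7 and 38.1 CPM in KI and 68.1, 77.0, 67.0, 72.0 and 91.8 CPM in WT. The groups did not overlap, but the log2 fold change of -0.59 did not pass the test (adjusted p = 0.149 from edgeR), while DESeq2 called it (adjusted p = 0.0384). The remaining 4a genes tested did not follow, with 48.4 and 48.8 CPM in KI against 33.0 to 45.1 in WT for Cyp4a31 (log2 fold change 0.33, adjusted p = 0.201 from edgeR) and a log2 fold change of 0.08 for Cyp4a32. Cyp4a10 shared 20.6% of its windows with other places, most of them with Cyp4a32.

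Cyp2f2, which activates naphthalene and is otherwise known from club cells of the lung, had 20.9 and 18.6 CPM in the KI livers and 39.3, 47.0, 52.5, 37.5 and 39.0 CPM in the WT livers. The KI livers were near 1 level and the WT livers near another, without overlap. It was 2.18-fold lower in KI (log2 fold change -1.12, standard error 0.154, adjusted p = 0.00912 from edgeR). The summed level of 5 lung club and alveolar markers was below 1 CPM in every liver library, at 0.491 to 0.824 CPM, with Scgb3a2 at 0 throughout.

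**Figure D3:**
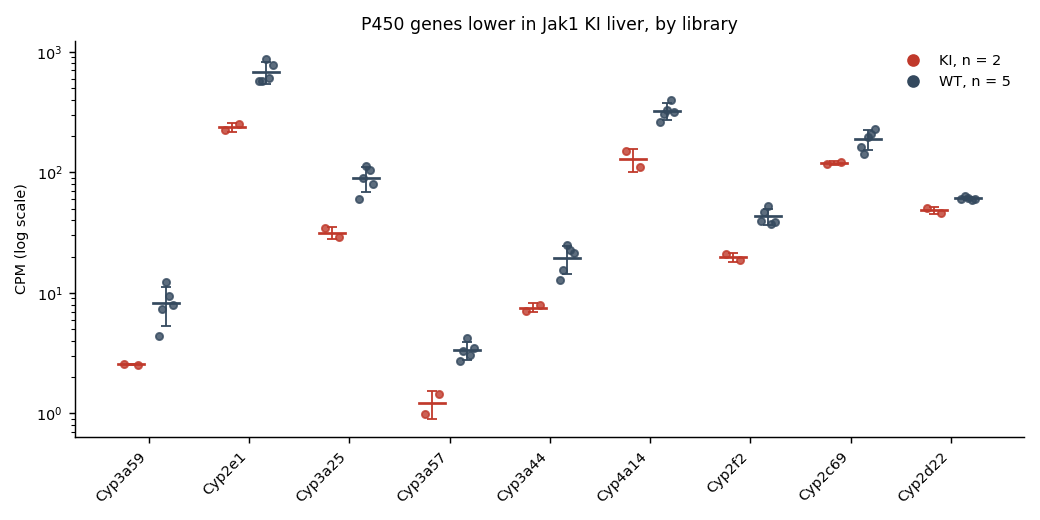
CPM on a log axis of the 9 P450 genes called lower in KI liver, for each of the 2 KI and 5 WT libraries (points), with the mean (bar) and SD (error bar) of each group. In all 9 genes both KI points lie below all WT points, as for Cyp2d22, at 50.9 and 45.8 CPM against 59.02 to 63.03 CPM.

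The 3a subfamily, which oxidizes a wide range of drugs and steroids, held 4 of the 9 genes. Cyp3a25 had 34.2 and 29.1 CPM in the KI livers against 59.8, 89.2, 113, 105 and 80.4 CPM in the WT livers, and was 2.83-fold lower (log2 fold change -1.50, standard error 0.233, adjusted p = 0.0141 from edgeR). Cyp3a44 had 7.10 and 7.99 CPM against 12.8, 15.4, 25.01, 22.6 and 21.4 CPM (log2 fold change -1.36, standard error 0.266, adjusted p = 0.0330). For both genes the KI livers lay together, well under WT 1, the lowest WT liver.

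Cyp3a57 was weakly expressed, at 0.996 and 1.45 CPM in KI and 2.72, 3.29, 4.23, 3.08 and 3.52 CPM in WT (log2 fold change -1.45, standard error 0.284, adjusted p = 0.0330 from edgeR). Cyp3a59 had 2.58 and 2.53 CPM against 4.36, 7.35, 12.3, 9.42 and 7.88 CPM, and its fold, 3.22, was the largest of the 9 called genes (log2 fold change -1.69, standard error 0.362, adjusted p = 0.0458). Some of these 4 genes are close paralogs, and whether their readings are independent was not tested. The coding sequences of Cyp3a25 and Cyp3a59 are 97.5% identical and share 11.2% of their 75-base windows, and Cyp3a57 is 93.9% identical to Cyp3a25.

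The other 3 genes of the subfamily that the naming rule kept were not called, and whether they differed from these 4 was not tested. Cyp3a16, the newborn form, had 124 and 131 CPM in KI and 147, 165, 205, 204 and 241 CPM in WT, which do not overlap, but its log2 fold change of -0.59 did not pass the test (adjusted p = 0.124 from edgeR, 0.0240 from DESeq2). Cyp3a11, the main drug-metabolizing 3a enzyme of adult mouse liver and a PXR target, had 134 and 132 CPM in KI and 178, 159, 187, 402 and 178 CPM in WT. Here liver WT 4 stood far above the other WT livers. The log2 fold change was -0.73 with it (adjusted p = 0.305 from edgeR) and -0.40 without it (adjusted p = 0.0527), where 3.41% of all genes were called lower.

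Cyp3a13, also found in gut, went the other way in these values, with 127 and 118 CPM in KI and 73.8, 71.8, 82.0, 125 and 94.9 CPM in WT. Liver WT 4 again was the highest WT liver and overlapped the KI livers. The log2 fold change was 0.45 (adjusted p = 0.269 from edgeR), and without WT 4 it was 0.61 and passed the test (adjusted p = 0.0281). In that setting 784 of all 14855 genes tested were higher, and Cyp3a13 was the 1 P450 gene among them. Summed gut epithelium markers were at 9.14 CPM in liver WT 4 and 12.3 to 19.6 CPM in the other livers, and Cdx2 was at 0 in all of them.

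All 7 genes of the subfamily that the naming rule kept lie on chromosome 5. Promoters of 6 of them are shown because 4 genes of this subfamily were called lower. The windows run from 190 to 81 bases before the RefSeq start of each gene in GRCm38.p6, read in the direction of the gene, with matches to 3 letter runs in capitals on either strand. The runs are AGGTCA and AGTTCA, short sites that nuclear receptors can bind, and CAAAGTCCA, a core of HNF4A sites. In the 250 bases before the start, AGGTCA was found in 14.0%, AGTTCA in 11.8% and CAAAGTCCA in 0.384% of 32851 RefSeq promoters. The first 4 windows belong to genes called lower, and the last 2 to genes not called.
Cyp3a25 (chr5:146009698-146009807, minus strand): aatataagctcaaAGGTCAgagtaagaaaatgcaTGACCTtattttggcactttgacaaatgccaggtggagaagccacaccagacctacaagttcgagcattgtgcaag
Cyp3a59 (chr5:146079068-146079177, plus strand): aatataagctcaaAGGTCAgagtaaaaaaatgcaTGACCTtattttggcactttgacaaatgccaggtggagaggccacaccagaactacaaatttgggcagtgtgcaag
Cyp3a57 (chr5:145345079-145345188, plus strand): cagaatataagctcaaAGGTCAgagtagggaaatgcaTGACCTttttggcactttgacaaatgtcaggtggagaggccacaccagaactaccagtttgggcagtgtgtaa
Cyp3a44 (chr5:145805955-145806064, minus strand): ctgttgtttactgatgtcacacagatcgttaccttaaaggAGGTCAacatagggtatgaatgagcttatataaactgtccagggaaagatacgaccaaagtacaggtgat
Cyp3a16 (chr5:145469804-145469913, minus strand): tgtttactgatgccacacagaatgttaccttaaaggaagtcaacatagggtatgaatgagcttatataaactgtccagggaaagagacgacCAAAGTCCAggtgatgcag
Cyp3a11 (chr5:145879935-145880044, minus strand): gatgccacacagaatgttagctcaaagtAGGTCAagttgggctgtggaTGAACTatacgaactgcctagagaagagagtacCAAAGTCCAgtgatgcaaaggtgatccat

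Cyp3a25, Cyp3a59 and Cyp3a57 each held AGGTCA followed, 15 bases on, by its reverse complement TGACCT. The distance was read from these promoters first and then searched for in all, so its presence in these 3 genes was fixed in advance. This pair at this distance was found in 5 of the 32851 promoters (0.0152%), of which 4 belonged to these 3 genes, since Cyp3a25 has annotated starts that lie 1 base apart. Cyp3a44 held a single AGGTCA. Cyp3a11 held AGGTCA, the reverse complement of AGTTCA and CAAAGTCCA, and Cyp3a16 held CAAAGTCCA only. Cyp3a13, which lies apart from the other 6 genes and is not shown, held none of the 3 runs in this window. The promoters of close paralogs share their letters by descent, so the matches are a description and not evidence of binding.

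The last 2 called genes moved less. Cyp2d22 had 50.9 and 45.8 CPM in the KI livers and 60.5, 63.03, 61.6, 59.02 and 59.9 CPM in the WT livers, which is 1.26-fold lower in KI (log2 fold change -0.33, standard error 0.0852, adjusted p = 0.0802 from edgeR). Cyp2c69 had 117 and 123 CPM against 163, 142, 196, 209 and 230 CPM (log2 fold change -0.65, standard error 0.178, adjusted p = 0.0962). Both calls were the least steady. Of 14 alternative settings, Cyp2d22 was called in 3 and Cyp2c69 in 5, whereas Cyp2e1, Cyp2f2, Cyp3a25 and Cyp4a14 were called in 12 each and Cyp3a44, Cyp3a57 and Cyp3a59 in 11 each.

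Most of the 60 genes did not pass the test in either direction. Their median log2 fold change was -0.17, beside -0.02 for all genes tested, with 37 below 0 and 23 above. The highest gene, Cyp2d26, had 706 and 647 CPM in KI and 637 to 900 CPM in WT (log2 fold change -0.16, adjusted p = 0.586 from edgeR). Cyp2c70 had 327 and 296 CPM in KI and 324 to 438 CPM in WT (log2 fold change -0.25, adjusted p = 0.350). In both genes the groups overlapped.

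By subfamily, 1 of the 11 tested 2c genes and 1 of the 9 tested 2d genes were called, with medians of -0.01 and -0.06 on the log2 scale. Of the 8 tested 4f genes none was called, and their median was 0.19. None of the 4 tested 2a genes was called either, and Cyp2a5, the coumarin hydroxylase, had 4.05 and 7.11 CPM in KI against 7.28 to 15.1 CPM in WT (log2 fold change -0.71, adjusted p = 0.316 from edgeR). Of the 7 3a genes that the naming rule kept 4 were called, with a median of -1.36. In the plot of all tested genes the called 3a genes, Cyp2e1, Cyp2f2 and Cyp4a14 form the lowest points apart from Cyp2b10.

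**Figure D4:**
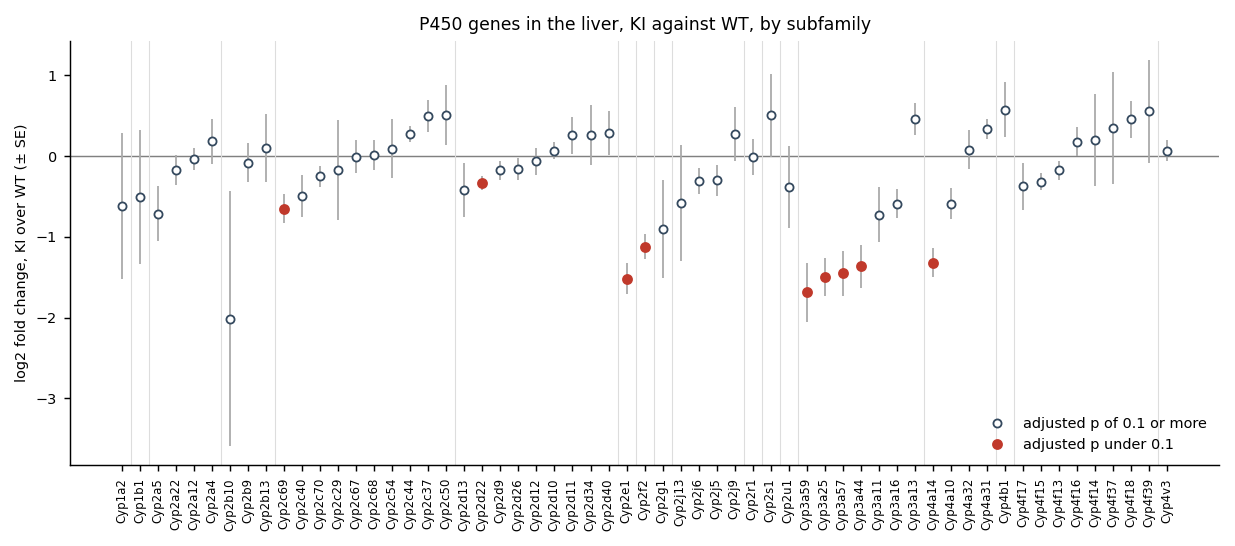
Log2 fold change, KI over WT, with its standard error, for 59 of the 60 P450 genes tested in liver, grouped by subfamily (filled, adjusted p under 0.1). Cyp2c66, which had no count in either KI liver, is left out. The called genes run from -1.69 for Cyp3a59 to -0.33 for Cyp2d22.

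Among the genes not called, the largest fitted differences were those of scarce transcripts. Cyp2c66 had no count in the KI livers and 0, 0.919, 0, 1.32 and 0.602 CPM in WT 1 to WT 5. Against a limit of 3 counts over the KI livers it was at least 12.6-fold higher in WT on average, but WT 1 and WT 3 were also at 0 and the test did not pass (adjusted p = 0.254 from edgeR). Cyp2b10 differed by -2.01 on the log2 scale with a standard error of 1.58, since WT 4 alone held 2.61 CPM. Cyp2g1 differed by -0.90 (standard error 0.604, adjusted p = 0.477).

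Summed over the 75 genes, the KI livers held 2977 and 2863 CPM and the WT livers 3445, 3712, 4359, 4185 and 4426 CPM. The KI livers were below all WT livers. The difference of the group means was 1105 CPM, of which Cyp2e1 made 40.1% and Cyp4a14 17.5%. The 9 genes called lower together made 74.1% of it, so the sum largely restates those calls. Over the 66 genes not called lower the groups overlapped, at 2372 and 2273 CPM in KI and 2267 to 2892 CPM in WT.

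The cell makeup of the livers was read from markers. Summed over 9 hepatocyte markers the KI livers held 208691 and 193578 CPM, within the WT range of 190534 to 236578 CPM. The erythroid sum was lower in KI (2711 and 2619 CPM against 3123 to 4326 CPM), and the neutrophil sum was higher (6441 and 7568 CPM against 4035 to 5314 CPM). The macrophage sum was higher as well, at 1730 and 1417 CPM against 906 to 1261 CPM. Of 8 tested macrophage markers 5 were called higher, and of 8 tested neutrophil markers 3, where 3.89% of all genes were. Of 6 tested erythroid markers 2 were called lower, where 1.68% of all genes were. The part of these shifts in the P450 levels was not tested.

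Genes that act with the P450s were read from fixed lists, the receptors and factors that regulate them first. Nr1i2, which encodes PXR, had 39.8 and 39.3 CPM in KI and 45.5 to 69.0 CPM in WT (log2 fold change -0.44, adjusted p = 0.177). Ppara had 177 and 179 CPM in KI and 200 to 267 CPM in WT (log2 fold change -0.35, adjusted p = 0.185). For both genes the KI livers lay below all WT livers, as they did for 11.3% of all genes tested, and neither passed the test.

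The values of Nr1i3, which encodes CAR, overlapped between the groups (log2 fold change -0.05, adjusted p = 0.932 from edgeR), as did those of Hnf4a (-0.16, adjusted p = 0.655) and Ahr (0.23, adjusted p = 0.804). Of 14 genes for P450 partners and heme supply none was called, and Por, the reductase gene, had 456 and 371 CPM in KI against 369 to 812 CPM in WT, the highest again in liver WT 4. The median log2 fold change over the 14 partners and heme genes was -0.32.

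Outside families 1 to 4, 12 of 21 P450 genes were tested in liver, and 3 were lower and 1 higher, where 1.68% and 3.89% of all genes were. Cyp39a1, an oxysterol hydroxylase of bile acid synthesis, had 132 and 137 CPM in KI and 166 to 255 CPM in WT (log2 fold change -0.70, standard error 0.173, adjusted p = 0.0730 from edgeR). Cyp17a1, a steroid 17-hydroxylase, was lower at -1.07 on the log2 scale (adjusted p = 0.0680), and so was Cyp26b1, which breaks down retinoic acid, at -2.79 (adjusted p = 0.0962). Cyp11a1, which starts steroid synthesis, was higher, at 1.59 and 1.42 CPM against 0.0942 to 0.636 CPM (log2 fold change 2.18, adjusted p = 0.0867).

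Of 49 tested genes for conjugation and other drug metabolism, 3 were lower and none higher, beside 1.68% and 3.89% of all genes. They were the glutathione transferase Gstt3 (log2 fold change -1.21, adjusted p = 0.0215 from edgeR) and the flavin monooxygenases Fmo5 (-0.63, adjusted p = 0.0701) and Fmo1 (-0.43, adjusted p = 0.0605). Of 21 PPARA targets of fat oxidation, 3 were lower and none higher, against the same background. Ehhadh, a peroxisomal enzyme of fatty acid oxidation, had 159 and 167 CPM in KI and 231 to 280 CPM in WT (log2 fold change -0.64, adjusted p = 0.0162), and Acaa1b and Acot1 differed by -0.50 and -0.95.

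Acute-phase genes are genes that hepatocytes raise in inflammation. Of 21 tested in the same livers, 6 were higher and none lower, beside 3.89% and 1.68% of all genes. Lrg1, a secreted glycoprotein of the response, had 278 and 277 CPM in KI and 71.6 to 105 CPM in WT (log2 fold change 1.62, standard error 0.133, adjusted p = 0.000759 from edgeR). The protease inhibitor gene Serpina3n was higher by 1.13 (adjusted p = 0.00365) and Socs3, a feedback inhibitor of JAK-STAT signalling, by 2.09 (adjusted p = 0.0120). The same 7 livers gave both sets of values, and no relation between them was tested.

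**Figure D5:**
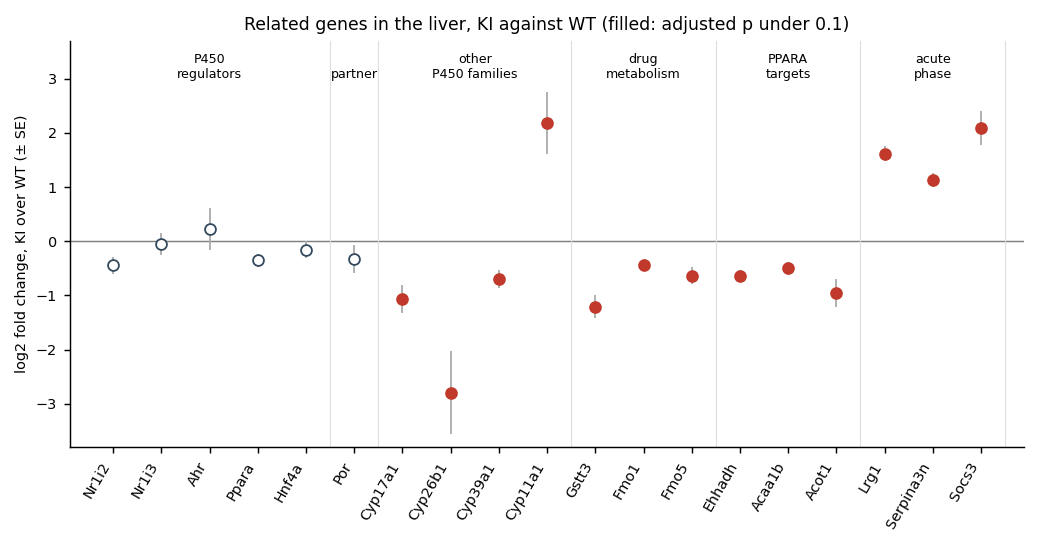
Log2 fold change, KI over WT, with its standard error, in liver for the named genes that regulate or work beside the P450s, and for 3 acute-phase genes (filled, adjusted p under 0.1). Socs3 and Cyp11a1 are the highest points, at 2.09 and 2.18, and Cyp26b1 is the lowest at -2.79.

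In brain, 20 of the 75 P450 genes were tested and none was called in either direction. The lowest adjusted p was 0.612 from edgeR's quasi-likelihood test, 0 genes passed an unadjusted p under 0.05, and DESeq2 called 0 as well. The background in edgeR was 0% in each direction, since it called no gene at all of 16322, while DESeq2 called 524 genes lower and 80 higher. The median log2 fold change of the 20 was 0.14, beside -0.02 for all genes. Cyp2j6 was the one gene with both KI brains below all WT brains, at 17.5 and 14.4 CPM against 17.7 to 21.05 CPM (log2 fold change -0.28, adjusted p = 0.612), where 15.8% of all genes had this separation. Cyp2d22 and Cyp4f13 had both KI brains above all WT brains, where 11.2% of all genes did, and neither passed the test. Without brain WT 5, Cyp2j9 passed the test, at 10.5 and 11.1 CPM in KI against 14.6 to 15.5 CPM in the other WT brains (log2 fold change -0.45, adjusted p = 0.0959 from edgeR). How many of all genes passed in that setting is not given here, so whether Cyp2j9 stood out from them was not tested.

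In skin, 27 genes were tested and none was called (lowest adjusted p = 0.778 from edgeR's quasi-likelihood test, background 0.0247% higher and 0% lower). DESeq2 called 0 too, beside 11 genes lower and 96 higher over all genes. At an unadjusted p under 0.05, 3 P450 genes passed in DESeq2 and 1 in edgeR, where 467 of all 16163 genes were higher and 271 lower. The gene in edgeR was Cyp2d22, with 32.1 and 30.9 CPM in KI and 21.2, 24.1, 14.9, 16.0 and 21.2 CPM in WT (log2 fold change 0.69, standard error 0.198). Both KI skins lay above all WT skins in 4 genes, Cyp2d22, Cyp1b1, Cyp4f18 and Cyp4v3, where 4.91% of all genes tested did, and below all WT skins in none, where 4.84% did. The keratinocyte genes overlapped widely, with log2 fold changes of -0.53 for Cyp2b19 and -0.18 for Cyp4f39 and standard errors of 0.479 and 0.938. Cyp3a11 was at 0 in both KI skins, and it had 1.27 and 0.634 CPM in skins WT 4 and WT 5. The summed level of the 9 hepatocyte markers was lowest in these 2 skins, at 361 and 617 CPM against 651 to 2792 CPM in the other 5, although Alb itself was highest in them, at 29.6 and 15.1 CPM.

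The difference of KI effects between tissues was tested in a fit of all 21 libraries, where 67 P450 genes had enough counts. Between liver and skin no P450 gene passed (lowest adjusted p = 0.127 for Cyp2d22, background 0.0997%), and 5 passed an unadjusted p under 0.05. Between liver and brain 2 passed, Cyp2e1 and Cyp2d22, where 2.81% of all genes did. For Cyp2d22 the liver effect was lower than the brain effect by 0.81 on the log2 scale (standard error 0.231, adjusted p = 0.0955 from edgeR's quasi-likelihood test), and with the replicate number as a block it no longer passed (adjusted p = 0.151). For Cyp2e1 the difference was -5.27 (standard error 1.30, adjusted p = 0.0533 from edgeR), but its brain side rested on 36 counts in brain KI 2. Brain KI 1 had 2 counts and the WT brains 0 to 3. The hepatocyte marker sum of brain KI 2 was 31.0 CPM, within the WT range of 19.2 to 35.2 CPM. In the skin libraries this sum did not follow Alb, and whether brain KI 2 held liver RNA was not tested. Without KI 1, KI 2 or WT 1 the number was 0, and without WT 2 or WT 5 it was 1. Against skin, neither Cyp2e1 (adjusted p = 0.801 from edgeR) nor Cyp2d22 passed, and the other 7 genes called in liver passed against neither tissue.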

How the data were processed

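RNA of brain, liver and skin of newborn mice was sequenced, 1 library per mouse and tissue. Per the study's methods, paired reads were aligned to mm9. The submitters' processing notes name TopHat2, TopHat, HTSeq and DESeq. The files deposited by the authors hold raw counts, 1 line for each gene symbol and without normalization, and the HTSeq summary lines at their end were left out. Of all aligned reads or pairs, 17.1% to 25.4% fitted more than 1 place and were not counted, which lowers close paralogs. The methods do not state whether the reads kept their strand. Without strand, reads of a gene and an antisense transcript cannot be told apart.

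KI and WT were compared within each tissue with edgeR 4.0.16 in R 4.3.3 (filterByExpr, TMM, quasi-likelihood test, limma 3.58.1), and a gene was called when its p, adjusted by Benjamini-Hochberg over all genes tested, was under 0.1. WT tissues were compared over 15 libraries, and differences of KI effects over 21. Alternatives were DESeq2 1.42.0 (Wald test, size factors), no filter, a joint fit of the 3 tissues, a block for the replicate number, a covariate for Y-linked expression, a threshold of 0.05, other thresholds for on (0.5 or 2 CPM, 1 RPKM) and each mouse left out. On simulated counts of the liver comparison with 200 changed genes among 14966, 60% of 2-fold and 81% of 4-fold changes were recovered, with 18 false calls. For brain 25% and 79%, and for skin 24% and 71%, were recovered.

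Exon lengths, positions and coding sequences came from GENCODE M1 on NCBIM37, which held 73 of the 75 genes (Cyp4a29 under its pseudogene name, Cyp2d13 and Cyp4f37 missing), 72 with a coding transcript. Promoters came from RefSeq (GRCm38.p6), which matched 62 genes. Summaries used Python 3.11.15 with pandas 2.3.3.

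The genes named were those called, the 10 highest in WT liver and 5 highest in WT skin and brain per length, the 5 largest uncalled liver differences, genes of known role, the called partners and other P450 genes with Nr1i2, Nr1i3, Ahr, Ppara, Hnf4a and Por, and up to 3 called genes of each further list. Cyp4a31, Cyp4a32, Cyp2c29 and the genes named for their separation in skin and brain, and Alb, were added after their values were seen. A result for 1 listed regulator is not reported here. The members and lists were chosen with earlier results of these data known.

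Libraries of 1 genotype and number were taken as 1 mouse. After tissue means were removed, same-numbered WT libraries correlated across genes with r of 0.00755 to 0.270. KI and WT mice share only numbers. The labels do not give litters, so p-values measure only the spread between these mice.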

Additional observations from a re-analysis of the deposited data

Results flagged for a closer look

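Among the named genes, 58 sets of 5 WT libraries were examined for a library standing far from the others, and 7 held one. Chance alone marks about 1 in 20 such sets. Liver WT 4 stood high for Cyp3a11 (402 CPM, WT median 178 CPM), Cyp2a5 (15.1 CPM, median 7.40 CPM) and Cyp2d9 (111 CPM, median 89.5 CPM). Brain WT 5 stood low for Cyp4x1 (0.838 CPM, median 11.1 CPM) and Cyp2j9 (8.38 CPM, median 14.8 CPM). Brain WT 2 stood high for Cyp1b1 (23.5 CPM, median 6.49 CPM), beside the highest fibroblast marker sum of the brains (925 CPM). Brain WT 3 stood high for Cyp2s1 (6.92 CPM, median 4.11 CPM).

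Of 67 P450 genes, 2 had KI effects that differed between liver and brain by the test of the difference itself, a share near the 2.81% of all genes that passed. For Cyp2e1 the liver effect minus the brain effect was -5.27 on the log2 scale, with 36 of its brain counts in KI 2. For Cyp2d22 it was -0.81, and with the replicate block it did not pass (adjusted p = 0.151 from edgeR). Without KI 1, KI 2 or WT 1 neither gene passed. What moves these libraries was not tested.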

How the results depend on the processing

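Over 14 counts of genes, 145 of 159 alternative values stayed within 1.5 times the value reported, and of 1020 alternative values of single genes 925 kept their direction and side of the threshold. None of the called genes changed direction. The number of P450 genes lower in KI liver was 9, fell to 0 when all 21 libraries shared 1 fit and ranged from 0 to 11 when single mice were left out. The number higher in KI liver was 0, with a range of 0 to 1 when single WT mice were left out, where Cyp3a13 (without WT 4) or Cyp2c37 (without WT 5) passed. Over all genes, 784 of 14855 tested were higher without WT 4 and 547 of 14846 without WT 5, so these single calls do not stand out. The number lower in KI brain was 0 and reached at most 1 when mice were left out, as without WT 5 (Cyp2j9), where the share over all genes is not given. The number of genes on in WT brain fell from 12 to 7 when at least 1 RPKM was asked for. The number whose KI effect differed between liver and brain ranged from 0 to 2 when mice were left out, beside 2. In the skin no alternative gave a call.

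KI and WT share the replicate numbers 1 and 2 only, and same-numbered livers did not deviate together (r = -0.0321 and -0.103 across genes), so the numbers were not taken as a pairing. With the number as a replicate block, 2 P450 genes were higher in KI liver (Cyp3a13 and Cyp2c37), 8 were lower, and 1 differed between liver and brain (Cyp2e1, while Cyp2d22 was lost). Over all genes that fit called 346 lower (2.31%) and 471 higher. In the skin the same check gave r of 0.252 and 0.0605.

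Only 2 KI mice were sequenced, KI 1 and KI 2 differ in Y-linked expression, and 60% of 2-fold changes were recovered in the liver simulation. With Y-linked expression as a covariate, 7 P450 genes were lower in KI liver, and 112 of all genes (0.748%).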
